A study of Mus musculus with 6 samples.

Results

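Desmosome genes were followed in 6 mouse mammary cell lines by RNA sequencing. The set holds 10 genes chosen by name: the desmosomal cadherins Dsg2, Dsc2 and Dsc3, the armadillo-repeat genes Jup, Pkp1, Pkp2 and Pkp3, and the plakin genes Dsp, Ppl and Evpl. All 10 were found among the 23449 genes of the count table, and 9 of them passed the filter on low counts, which Dsc3 did not. The filter kept 13698 genes in all.

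The groups were 3 lines with the genotype label 16IC/WT and 3 lines with the genotype label EIC/WT, called 16IC 1 to 3 and EIC 1 to 3. As background that the labels do not state, 16IC carries an inducible HER2 that lacks exon 16, and EIC carries an inducible wild-type ErbB2. All 6 lines came from female FVB/N mammary tissue, were grown in DMEM with 10% serum, EGF, insulin and pituitary extract, and were kept in doxycycline at 10 ug/mL. All 6 were labelled as doxycycline-treated, so the receptor form and any other way in which the lines differ cannot be told apart. The sources used here name neither the promoter behind each transgene nor whether a line is 1 clone. Nothing in the labels says that the lines of a group came from separate animals, so the p-values speak only of the spread among 6 samples, part of which may be technical.

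Desmosomes are junctions that rivet epithelial cells together. Desmogleins and desmocollins span the membrane and bind those of the neighbouring cell. Inside the cell, plakoglobin (Jup) and the plakophilins (Pkp1 to Pkp3) hold the cadherin tails, and desmoplakin (Dsp) links this plaque to keratin filaments. Periplakin (Ppl) and envoplakin (Evpl) are related plakins that pair with each other and also sit under the membrane of squamous cells. In the mammary gland, desmosomes join luminal cells to each other and to the myoepithelium.

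Library totals ranged from 15621563 to 16091846 counts in 16IC and from 16742109 to 17468498 counts in EIC. The line 16IC 3 stood apart from its group. Ranked over tested genes (a correlation across genes, not over independent replicates), its Spearman coefficient was 0.874 with 16IC 1 and 0.880 with 16IC 2, against 0.989 between those lines and 0.871 to 0.885 between 16IC 3 and the EIC lines. To a smaller degree EIC 2 also differed from its group. Its coefficient was 0.925 with EIC 1 and 0.917 with EIC 3, against 0.979 between EIC 1 and EIC 3. Mitochondrial genes took 2.0 to 3.39% of counts in 16IC and 0.926 to 1.5% in EIC, and their part in the results was not tested. Levels below are CPM (counts scaled to a common depth) of the TMM-scaled library size when lines are compared, and the authors' FPKM, which is per length, when genes are compared.

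Most desmosome genes had a higher mean in the 16IC lines, and the cadherin Dsg2 and desmoplakin passed the test. Of the 9 tested members, edgeR's quasi-likelihood test called 2 higher (Dsg2 and Dsp) and 0 lower, where it called 2.45% of all tested genes, 1.25% higher and 1.20% lower. A log2 fold change above 0 was found for 8 of the 9, and for 49.7% of all tested genes. The median log2 fold change of the members was 2.42, beside -0.0044 over all tested genes. For 5 members (Dsg2, Dsp, Jup, Pkp1 and Pkp2) each 16IC line exceeded each EIC line, as for 17.2% of all tested genes, and groups were apart in either direction for 31.4%. An unadjusted p under 0.05 was reached by 8 members, against 22.7% of tested genes.

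**Figure D1:**
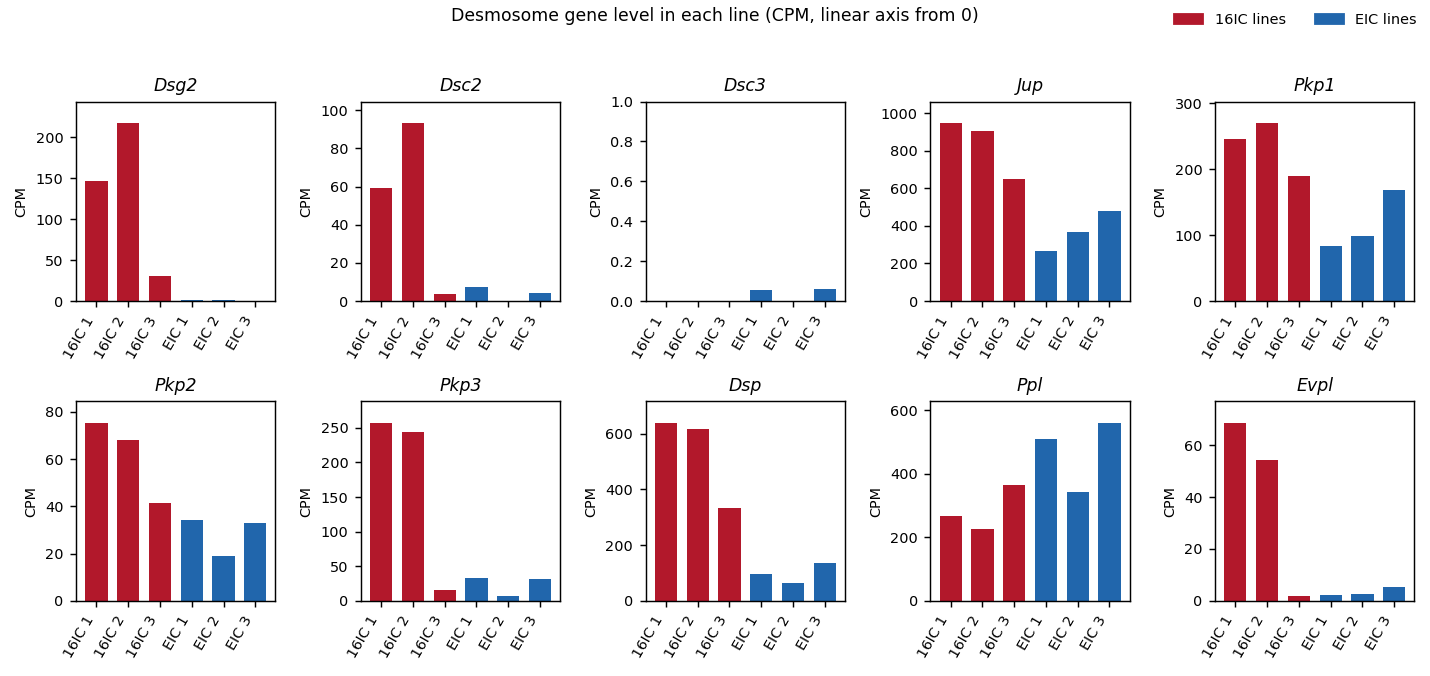
Level of each desmosome gene in each line, in CPM on a linear axis from 0, with the 3 16IC lines in red and the 3 EIC lines in blue. Dsg2 and Dsp are higher in every 16IC line, Dsc2, Pkp3 and Evpl are high in 16IC 1 and 16IC 2 but not in 16IC 3, and Ppl is highest in EIC 3.

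Upstream sequence was at hand for Dsp and Jup, which were matched to RefSeq promoters, 2 of the 10 members. The 250 bases before each RefSeq start (GRCm38.p6, strand of the gene, 5′ to 3′) are shown for these because no other member had upstream sequence at hand. They are the anchor and the hub of the plaque, and both had non-overlapping groups, as had Dsg2, Pkp1 and Pkp2. The Dsp stretch is chr13:38151044-38151293 on the + strand and the Jup stretch is chr11:100397791-100398040 on the - strand. Capitals mark GGGCGG, the GC box, read on both strands.
Dsp: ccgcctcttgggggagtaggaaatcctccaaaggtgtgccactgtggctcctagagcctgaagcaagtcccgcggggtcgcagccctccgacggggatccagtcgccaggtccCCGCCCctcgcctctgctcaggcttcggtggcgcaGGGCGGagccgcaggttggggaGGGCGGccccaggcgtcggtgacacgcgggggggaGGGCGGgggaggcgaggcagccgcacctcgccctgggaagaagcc
Jup: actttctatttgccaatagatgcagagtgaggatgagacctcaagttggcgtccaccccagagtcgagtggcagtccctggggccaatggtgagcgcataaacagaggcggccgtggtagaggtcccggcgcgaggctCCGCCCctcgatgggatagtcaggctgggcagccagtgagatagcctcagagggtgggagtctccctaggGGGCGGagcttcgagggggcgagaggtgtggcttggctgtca

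The GC box was added after the letters were seen. It occurred at 45, 80, 102 and 137 bases before the start of Dsp and at 42 and 112 bases before that of Jup, and 32.74% of the 32851 RefSeq promoters hold at least 1. The stretches were GC rich, with 72.4% G or C for Dsp and 62.0% for Jup, where the median promoter had 52.4%. Neither held AACCGGTT (the Grainyhead-like motif, in 0.12% of promoters), CAGGTG (an E-box, in 17.22%), TGANTCA (AP-1, in 6.75%) or GGGTGTGG (a KLF motif, in 3.2%), on either strand. None of these searches says whether a factor binds there.

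Among the cadherins, Dsg2 was at a very low level in EIC and rose in the 16IC lines. Dsg2, desmoglein 2, the widespread desmoglein of simple epithelia (ENSMUSG00000044393, chromosome 18, 20558074 to 20604521, + strand), had 147, 218 and 30.75 CPM in 16IC 1 to 3, against 1.08, 1.62 and 0.311 CPM in EIC 1 to 3. The EIC values rest on 19, 27 and 5 counts. The lowest 16IC line lay well above the highest EIC line, although 16IC 3 had far less than the other 16IC lines. The means were 132 ± 94.4 CPM for 16IC and 1.01 ± 0.660 CPM for EIC (SD, n = 3 each), a 131-fold difference. On the log2 scale it was 7.02 higher in 16IC (SE 1.0, edgeR adjusted p = 0.0387). Exons of Dsg2 share 330 bases with those of the antisense gene Gm16090, which had 7, 8 and 0 counts in 16IC and 0 counts in every EIC line, and the strandedness of the counting is not given.

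Dsc2, desmocollin 2, the partner cadherin of Dsg2 (ENSMUSG00000024331, chromosome 18, 20030633 to 20059554, - strand), did not separate the groups. It had 59.3, 93.3 and 3.89 CPM in 16IC 1 to 3, against 7.24, 0 and 4.10 CPM in EIC 1 to 3. The 16IC 3 value lay inside the EIC range, while EIC 2 had 0 counts, which allows up to 0.180 CPM. Its log2 fold change of 3.78 (SE 1.65) did not pass the test (edgeR adjusted p = 0.241), and it missed it with any line left out. The log2 fold change was 4.33 without 16IC 3 (edgeR adjusted p = 0.0983), 3.06 without 16IC 2 (0.461), 4.63 without EIC 1 (0.335), 3.19 without EIC 2 (0.239) and 4.86 by limma-voom (adjusted p = 0.332). Dsc3, the desmocollin of basal and myoepithelial cells (ENSMUSG00000059898, chromosome 18, 19960930 to 20002351, - strand), had 0 counts in all 16IC lines and 1, 0 and 1 counts in EIC 1 to 3. Both groups were at or under the floor of 3 counts, so no fold is given, and the floor corresponds to 0.171 to 0.195 CPM per library, for counting error only.

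These cadherins lie in 1 cluster, and the values of their neighbours were mixed. Dsg3, a desmoglein of stratified epithelia next to Dsg2, had 388, 923 and 6 counts in 16IC 1 to 3 and 0, 1 and 1 counts in EIC 1 to 3, and did not pass the filter. Dsc1, next to Dsc2, had 0 counts in every 16IC line and 3, 0 and 4 counts in EIC 1 to 3. B4galt6, a glycosyltransferase gene beyond Dsg2 that was picked out after its values were seen, had 54.0, 60.9 and 134.7 CPM in 16IC 1 to 3, against 17.05, 9.50 and 18.3 CPM in EIC 1 to 3. In contrast to Dsg2, Dsg3 and Dsc2, it was highest in 16IC 3, and it narrowly missed the threshold (log2 fold change 2.48, edgeR adjusted p = 0.0529).

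The armadillo-repeat genes were expressed in all lines. Jup, plakoglobin, which binds both desmosomal and classical cadherins (ENSMUSG00000001552, chromosome 11, 100368958 to 100397763, - strand), had 947, 905 and 649 CPM in 16IC 1 to 3, against 266, 366 and 478.5 CPM in EIC 1 to 3. The groups did not overlap, and 16IC 3 was again the lowest of its group. The means were 834 ± 161 CPM for 16IC and 370.2 ± 106 CPM for EIC (SD, n = 3 each), and the log2 fold change of 1.17 (SE 0.29) did not pass the test with all lines (edgeR adjusted p = 0.0899). Without 16IC 3 it was 1.32 and passed (edgeR adjusted p = 0.0362).

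Of the plakophilins, Pkp1 and Pkp2 showed modest differences and Pkp3 a large one that 16IC 3 did not share. Pkp1, the main plakophilin of stratified epithelia (ENSMUSG00000026413, chromosome 1, 135871395 to 135919207, - strand), had 246, 270.2 and 189.6 CPM in 16IC 1 to 3, against 82.9, 99.1 and 169 CPM in EIC 1 to 3. The groups did not overlap, though 16IC 3 and EIC 3 came close, and the fit gave a log2 fold change of 1.01 (SE 0.31, edgeR adjusted p = 0.133). Pkp2, the plakophilin of simple epithelia and heart (ENSMUSG00000041957, chromosome 16, 16213318 to 16272712, + strand), had 75.4, 68.1 and 41.25 CPM in 16IC 1 to 3, against 34.3, 18.95 and 32.8 CPM in EIC 1 to 3. Its groups did not overlap either (log2 fold change 1.10, SE 0.34, edgeR adjusted p = 0.126). Leaving out 16IC 3, Pkp2 passed (1.32, edgeR adjusted p = 0.0439).

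Pkp3, a plakophilin found in most desmosomes (ENSMUSG00000054065, chromosome 7, 141078218 to 141090510, + strand), had 257, 243 and 15.7 CPM in 16IC 1 to 3, against 33.8, 6.92 and 31.6 CPM in EIC 1 to 3. The line 16IC 3 lay below EIC 1 and EIC 3 and above EIC 2. The means were 172 ± 136 CPM for 16IC and 24.1 ± 14.9 CPM for EIC (SD, n = 3 each), with a log2 fold change of 2.84 (SE 1.08, edgeR adjusted p = 0.192). With 16IC 3 left out it reached 3.38 and passed (edgeR adjusted p = 0.0334).

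The plakins showed no single direction. Dsp, desmoplakin, the link from plaque to keratin (ENSMUSG00000054889, chromosome 13, 38151294 to 38198577, + strand), had 639.5, 616 and 334.5 CPM in 16IC 1 to 3, against 98.0, 63.8 and 135 CPM in EIC 1 to 3. Every 16IC line had more than any EIC line. The means were 530.1 ± 170 CPM for 16IC and 98.9 ± 35.6 CPM for EIC (SD, n = 3 each), a 5.36-fold difference. On the log2 scale it was 2.42 higher in 16IC (SE 0.39, edgeR adjusted p = 0.0432). Exons of Dsp share 499 bases with the opposite-strand gene Gm10129, which had at most 2 counts in a 16IC line and at most 5 in an EIC line.

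Ppl, periplakin (ENSMUSG00000039457, chromosome 16, 5086291 to 5132421, - strand), was the 1 tested member with a negative value. It had 266.5, 227 and 366 CPM in 16IC 1 to 3, against 508.5, 344.5 and 561 CPM in EIC 1 to 3. The groups overlapped, as 16IC 3 lay above EIC 2, and the log2 fold change of -0.72 (SE 0.28) did not pass (edgeR adjusted p = 0.201). Evpl, envoplakin (ENSMUSG00000034282, chromosome 11, 116220559 to 116238077, - strand), had 68.7, 54.2 and 1.95 CPM in 16IC 1 to 3, against 2.22, 2.77 and 5.35 CPM in EIC 1 to 3. It was high in 16IC 1 and 16IC 2, and 16IC 3 lay below every EIC line. The fit gave a log2 fold change of 3.59 (SE 1.18, edgeR adjusted p = 0.145), and with 16IC 3 left out it came to 4.15 and passed (edgeR adjusted p = 0.00924). By limma-voom it was 2.63 (adjusted p = 0.434).

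**Figure D2:**
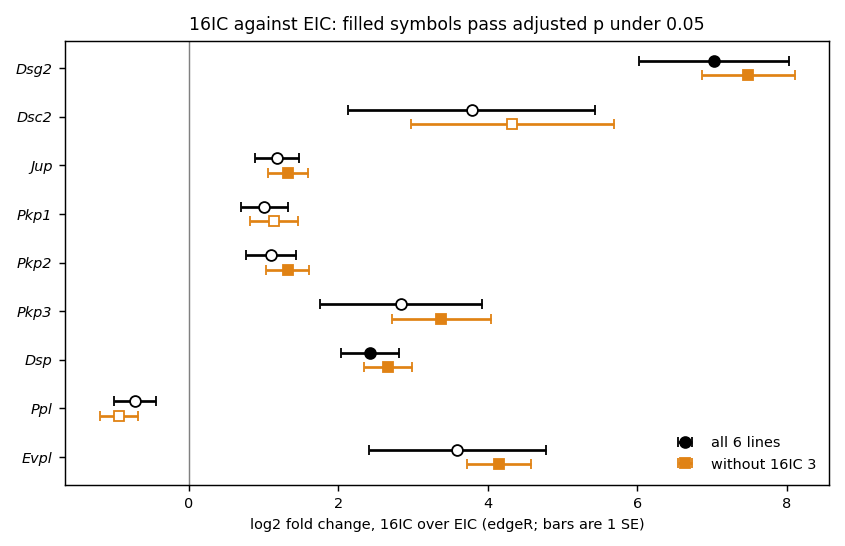
Log2 fold change of each tested member, 16IC over EIC, from edgeR with all 6 lines (circles) and without 16IC 3 (squares), bars giving 1 SE and filled symbols an adjusted p under 0.05. With all lines Dsg2 and Dsp are filled, and without 16IC 3 Dsg2, Jup, Pkp2, Pkp3, Dsp and Evpl are filled.

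Both calls depended on most of the lines. Without 16IC 1, 16IC 2, EIC 1, EIC 2 or EIC 3 the edgeR adjusted p of Dsg2 was 0.161, 0.157, 0.150, 0.0609 and 0.153, and that of Dsp was 0.169, 0.171, 0.164, 0.0672 and 0.151, so that edgeR called 0 members in each of these fits, with 4, 5, 4, 5 and 6 at an unadjusted p under 0.05. Over all genes, edgeR called 5, 0, 0, 282 and 0 genes in the same fits, with 2248, 2251, 2627, 3273 and 2341 at an unadjusted p under 0.05. Without 16IC 3 edgeR called 6 members, all higher in 16IC, where it called 13.4% of all tested genes and 6.60% as higher in 16IC. The 16IC lines left in that fit, 16IC 1 and 16IC 2, were the most alike pair of libraries (Spearman 0.989). Nothing in the labels says that they are independent, so the spread within 16IC may be too small in that fit. With all lines limma-voom called 1 member (Dsp) and 2.10% of all tested genes, with an adjusted p of 0.0864 for Dsg2. DESeq2 called 7 members, all higher in 16IC (the tested members other than Dsc2 and Ppl), where 15.5% of genes with an adjusted p were called and 8.37% were called higher. The authors' deposited table gives Dsg2, Dsp, Jup, Pkp3 and Evpl, 5 members, an adjusted p under 0.05, with log2 fold changes of 7.01, 2.39, 1.14, 2.81 and 3.57, where 8.63% of all genes have one and 4.65% are higher in 16IC.

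Read line by line, 16IC 1 and 16IC 2 resembled each other and 16IC 3 did not follow them in every member. In 16IC 1, 8 of the 9 tested members lay above all 3 EIC lines, and the same number did in 16IC 2, where 32.0 and 32.2% of all tested genes did. In 16IC 3 the count was 5, where 35.4% of all tested genes lay above. The line 16IC 3 was the lowest of its group for 8 of the 9 members, Ppl being the exception, against 44.7% of all tested genes. The mean of 16IC 1 and 16IC 2 was 1.36-fold that of 16IC 3 for Pkp1, 1.43-fold for Jup, 1.74-fold for Pkp2 and 1.88-fold for Dsp. It was 5.93-fold for Dsg2, 15.9-fold for Pkp3, 19.6-fold for Dsc2 and 31.6-fold for Evpl. A gap of more than 4-fold (on CPM + 0.1) was thus found for 4 of the 9 members, and for 4.77% of all tested genes.

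Among the EIC lines Pkp3, Dsg2 and Dsc2 varied more than the other members. The highest EIC line had 1.63 to 2.40 times the lowest for Ppl, Jup, Pkp2, Pkp1, Dsp and Evpl, 4.88 times for Pkp3 and 5.22 times for Dsg2. EIC 2 was the lowest EIC line for Dsc2, Pkp2, Pkp3, Dsp and Ppl, and the highest for Dsg2. The classical cadherin gene Cdh1, picked out after its values were seen, had 1054, 993.5 and 270.6 CPM in 16IC 1 to 3, and its EIC values of 88.7, 307 and 56.4 CPM were highest in that same line.

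**Figure D3:**
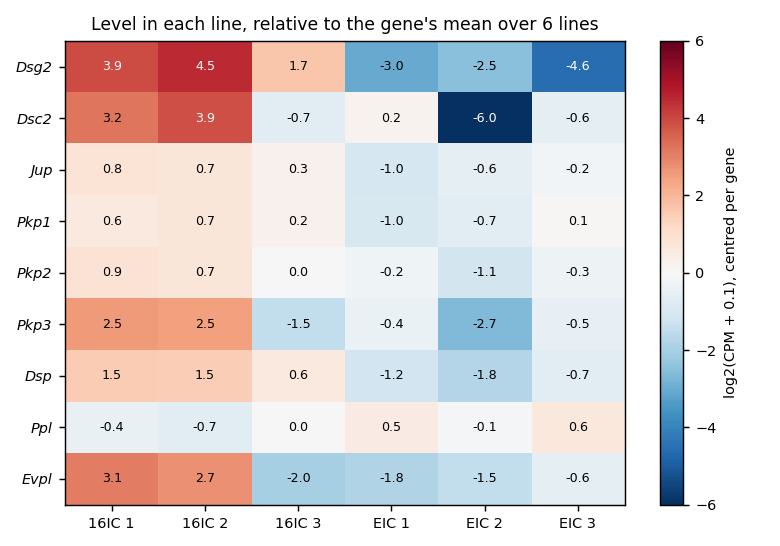
Level of each tested member in each line as log2(CPM + 0.1) minus the mean of that gene over the 6 lines, red being above and blue below the mean. For Pkp3, Dsc2 and Evpl the 16IC 3 column is blue, at -1.5, -0.7 and -2.0, as are the EIC columns except Dsc2 in EIC 1 at 0.20, and for Dsg2 it is red at 1.7.

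Per length, plaque genes were expressed in every line and the desmosomal cadherin genes hardly at all in EIC. The summed FPKM of Dsp, Jup, Pkp1, Pkp2 and Pkp3 was 340.9, 328.5 and 184.6 in 16IC 1 to 3, against 81.2, 83.6 and 136.0 in EIC 1 to 3. The summed FPKM of Dsg2, Dsc2 and Dsc3 was 28.5, 42.8 and 4.44 in 16IC 1 to 3, against 1.47, 0.185 and 0.822 in EIC 1 to 3. Cadherin signal thus came to 8.36, 13.0 and 2.40% of plaque signal in 16IC 1 to 3 and to 1.81, 0.222 and 0.604% in EIC 1 to 3. All 3 16IC lines were above all 3 EIC lines, with 16IC 3 close to EIC 1. The log2 ratio averaged -3.97 ± 1.26 in 16IC and -7.33 ± 1.51 in EIC (SD, n = 3 each), and an exact two-sided permutation test gave p = 0.1, the smallest that 3 against 3 lines allow (0.25 adjusted over the 5 ratios compared). This ratio was chosen after the values were seen.

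**Figure D4:**
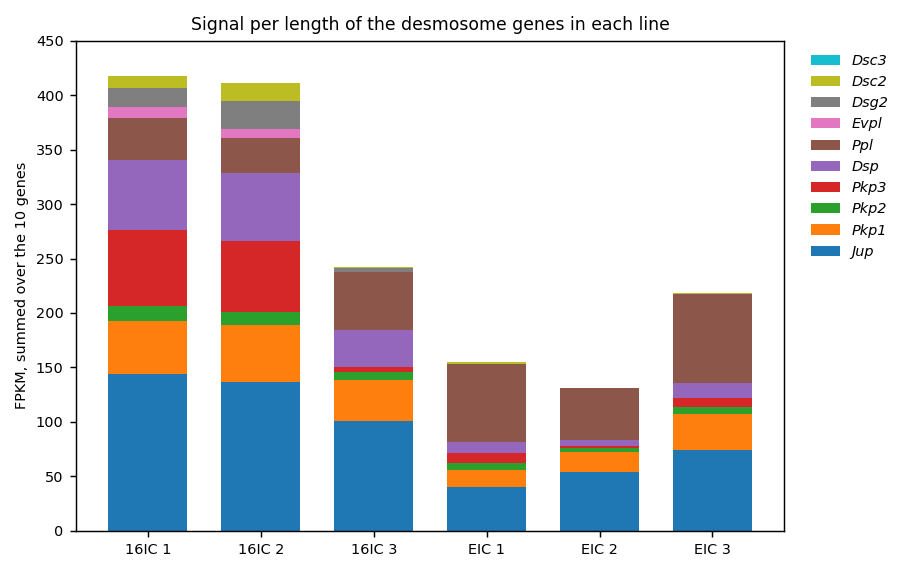
FPKM of the 10 desmosome genes stacked for each line, on a linear axis from 0. The stacks reach 417.9, 411.5 and 242.2 in 16IC 1 to 3 and 154.5, 131.4 and 218.6 in EIC 1 to 3, and Ppl is a larger part of the stack in the EIC lines.

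The order of the members differed between lines. Jup ranked highest by FPKM in all 16IC lines (144, 137 and 100.5 FPKM) and in EIC 2 (53.6 FPKM), while Ppl ranked highest in EIC 1 and EIC 3 (71.5 and 81.0 FPKM). Ppl made up 9.08, 7.78 and 21.8% of the summed FPKM of the 10 genes in 16IC 1 to 3, and 46.3, 35.9 and 37.0% in EIC 1 to 3, groups that did not overlap. Pkp3 was the second gene in 16IC 1 and 16IC 2 (69.8 and 65.4 FPKM), and the sixth in 16IC 3 (4.33 FPKM). Desmoplakin held 14.2 to 15.5% of the sum in 16IC and 4.74 to 6.36% in EIC.

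Among related genes the groups overlapped for 3 ratios. Pkp3 made up 53.1, 50.3 and 8.72% of the summed FPKM of Pkp1, Pkp2 and Pkp3 in 16IC 1 to 3, against 29.0, 7.60 and 18.02% in EIC 1 to 3 (exact two-sided permutation p = 0.3). The log2 ratio of Evpl to Ppl was -1.85, -1.96 and -7.44 in 16IC 1 to 3, against -7.73, -6.85 and -6.60 in EIC 1 to 3 (exact permutation p = 0.3). For Jup over Ctnnb1, the gene of its armadillo relative beta-catenin, it was -0.34, -0.33 and -1.13 in 16IC 1 to 3, against -1.65, -1.42 and -0.81 in EIC 1 to 3 (exact permutation p = 0.2). In each of these, 16IC 3 lay with the EIC lines and apart from 16IC 1 and 16IC 2. Adjusted over the 5 ratios, each of these p-values was 0.3. Dsc2 was 100% of the Dsc2 and Dsc3 signal in all 16IC lines and 99.2 and 98.5% in EIC 1 and EIC 3, with no value in EIC 2 (exact permutation p = 0.1, the smallest possible, and 0.25 adjusted over the 5 ratios). The gap rests on 1 Dsc3 count in EIC 1 and 1 in EIC 3, under the floor of 3 counts, so no difference is read from it.

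**Figure D5:**
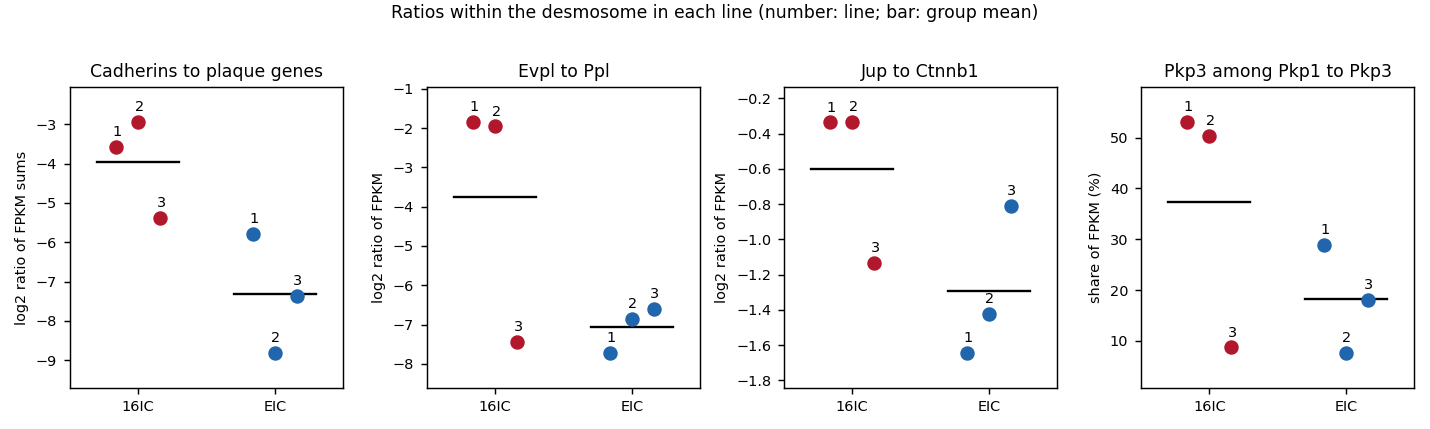
Ratios between desmosome genes by line, from FPKM: summed cadherins over summed plaque genes, Evpl over Ppl and Jup over Ctnnb1 as log2 ratios, and the Pkp3 share in percent, with numbered points for lines and bars for group means. In the last 3 panels 16IC 3 lies at the level of EIC lines, at -7.44, -1.13 and 8.72%.

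Genes that work with desmosomes were looked at by list, each list with its counts. Over all tested genes edgeR called 2.45% and limma-voom 2.10%, and 22.7% had an unadjusted p under 0.05 in edgeR. DESeq2 called 15.5% of genes with an adjusted p. Counts of every list below, the marker lists included, are to be read beside these shares, and no list was tested as a set. Of 8 other desmosomal genes, 4 were analysed and 2 passed the filter, with 0 called by edgeR or limma-voom, 1 by DESeq2 and 1 at an unadjusted p under 0.05. That gene was Perp, a tetraspan protein of desmosomes, which had 458, 399.7 and 484 CPM in 16IC 1 to 3, against 216, 181 and 321 CPM in EIC 1 to 3 (log2 fold change 0.90, edgeR adjusted p = 0.117). Its groups did not overlap, and unlike Dsg2, Dsp and Jup it was highest in 16IC 3. Pkp4, a plakophilin relative found mainly at adherens junctions, had a log2 fold change of 0.43 (edgeR adjusted p = 0.392).

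Of 10 keratin genes, whose filaments desmoplakin anchors, 8 were analysed and 5 passed the filter, with 0 called by edgeR or limma-voom, 2 by DESeq2 and 3 at an unadjusted p under 0.05 (median log2 fold change 0.61). Krt7, a luminal keratin, had 2784, 2785 and 207 CPM in 16IC 1 to 3, against 434, 51.9 and 169 CPM in EIC 1 to 3 (edgeR adjusted p = 0.179). Its 16IC 3 value lay between EIC lines, as for Pkp3. Krt18 had 1931, 1999 and 563 CPM in 16IC and 1084, 661 and 1194 CPM in EIC, Krt19 at most 0.649 CPM in 16IC and 7.70 to 198 CPM in EIC, and Krt14 1.10 to 13.1 CPM in 16IC and at most 0.120 CPM in EIC (edgeR adjusted p = 0.542, 0.0899 and 0.0748).

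Of 11 other plakin and hemidesmosome genes, all tested, edgeR and limma-voom called 0, DESeq2 called 2 and 2 had an unadjusted p under 0.05 (median log2 fold change 0.30). Eppk1, the plakin epiplakin, had 139.7, 63.6 and 24.3 CPM in 16IC 1 to 3, against 6.22, 6.26 and 8.08 CPM in EIC 1 to 3 (log2 fold change 3.47, edgeR adjusted p = 0.0538). Its groups did not overlap. Itgb4 and Itga6, the hemidesmosome integrin, had log2 fold changes of 1.11 and -0.55 (edgeR adjusted p = 0.290 and 0.324). Of 10 cornified envelope and transglutaminase genes, partners of Ppl and Evpl in squamous cells, 9 were analysed and 2 were tested, Ivl and Sprr1a. Both edgeR and the other tools called 0 of them, with 0 at an unadjusted p under 0.05 (median log2 fold change -1.71). Ivl averaged 2.71 CPM in 16IC and 6.72 CPM in EIC, and Sprr1a 0.740 and 3.23 CPM. Their log2 fold changes were -1.30 and -2.12 (edgeR adjusted p = 0.372 and 0.239), and for Sprr1a each 16IC line lay below each EIC line.

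Of 12 adherens junction genes, 11 were analysed and 10 tested, with 0 called by edgeR or limma-voom, 4 by DESeq2 and 5 at an unadjusted p under 0.05 (median log2 fold change 0.62). Ctnnd1, p120 catenin, had a log2 fold change of 0.73 (edgeR adjusted p = 0.0825) with groups that did not overlap, as did Afdn (0.80, edgeR adjusted p = 0.158) and Ctnnb1 (0.50, edgeR adjusted p = 0.222). The adhesion gene Nectin4 had 67.2, 79.1 and 0.519 CPM in 16IC 1 to 3, against 0.180 to 0.627 CPM in EIC (edgeR adjusted p = 0.0929), and Nectin3 had 101, 123 and 32.4 CPM in 16IC 1 to 3, against 19.6 to 35.5 CPM in EIC (edgeR adjusted p = 0.157). For both, 16IC 3 lay inside the EIC range. Of 9 kinase and protease genes that act on desmosomes, all tested, edgeR and limma-voom called 0, DESeq2 called 1 and 1 had an unadjusted p under 0.05 (median log2 fold change -0.03). That gene was Egfr, the EGF receptor, with 39.0, 42.5 and 9.79 CPM in 16IC 1 to 3, against 4.45, 3.31 and 4.72 CPM in EIC 1 to 3 (edgeR adjusted p = 0.0621). Adam9, Prmt1 and Gsk3b had log2 fold changes of -0.48, -0.29 and 0.07 (edgeR adjusted p = 0.371, 0.730 and 0.814).

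Of 15 transcription factor genes known to act on epithelial adhesion genes, 11 passed the filter and edgeR called 1 higher and 1 lower, with 5 at an unadjusted p under 0.05 (median log2 fold change -0.60). On the same list limma-voom called 3 and DESeq2 called 5. Grhl1, a Grainyhead-like factor that regulates a desmoglein gene in mouse skin, had 20.9, 18.4 and 14.1 CPM in 16IC 1 to 3, against 0.742, 0.962 and 0.746 CPM in EIC 1 to 3. It rose in every 16IC line, 16IC 3 included (log2 fold change 4.43, SE 0.33, edgeR adjusted p = 0.0181). Klf4, a factor of epidermal differentiation, fell, with 11.8, 18.1 and 5.19 CPM in 16IC and 126, 85.95 and 114 CPM in EIC (log2 fold change -3.21, SE 0.48, edgeR adjusted p = 0.0390). Without 16IC 1, 16IC 2, EIC 1 or EIC 3 neither was called (edgeR adjusted p = 0.0845, 0.110, 0.102 and 0.151 for Grhl1, and 0.169, 0.134, 0.145 and 0.157 for Klf4), and without EIC 2 Klf4 was not (0.0545). Grhl2, its relative, and Twist1, a factor of epithelial-mesenchymal transition, had log2 fold changes of 1.64 and -3.17 (edgeR adjusted p = 0.0676 and 0.0540).

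The repressor genes Zeb1 and Zeb2, whose products silence epithelial junction genes, were picked out after their values were seen. Zeb1 had 1.57, 2.33 and 45.7 CPM in 16IC 1 to 3, against 38.4, 57.8 and 53.2 CPM in EIC 1 to 3 (edgeR adjusted p = 0.500). Zeb2 had 0.0602, 1.84 and 51.8 CPM in 16IC 1 to 3, against 74.9, 92.3 and 68.5 CPM in EIC 1 to 3 (edgeR adjusted p = 0.499). Both were near the EIC level in 16IC 3 and low in 16IC 1 and 16IC 2, the reverse of Pkp3, Dsc2 and Evpl. Elsewhere on the transcription factor list, Snai2 had 0.663, 0.612 and 6.94 CPM in 16IC and 3.61 to 5.02 CPM in EIC. Snai1 was lowest in 16IC 3, with 17.0, 15.4 and 7.78 CPM in 16IC and 13.2 to 31.3 CPM in EIC. Twist1 had 19.7 CPM in 16IC 3, below the 79.1 to 113 CPM of EIC. The part of these genes in the results was not tested.

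The mean pattern of the 9 tested members over the 6 lines, after centring log2(CPM + 0.1) per gene, was 1.80, 1.85 and -0.15 in 16IC 1 to 3 and -0.88, -1.87 and -0.74 in EIC 1 to 3. Single members correlated with that mean, which contains them, at Pearson r of 0.865 (Pkp1) to 0.981 (Pkp2), and Ppl at -0.728. Of 10469 other protein-coding genes with a symbol and at least 5 CPM in the higher group, the 8 most like it over the 6 lines had r of 0.995 to 0.999. They were Ppp1r13l, Pigx, Dnmt3a, Swap70, Ppp1r13b, F2rl1, Myo5b and Llgl2. Ppp1r13l, which encodes a p53-binding protein, had 190, 185 and 79.5 CPM in 16IC 1 to 3, against 55.5, 36.3 and 56.4 CPM in EIC 1 to 3. These lines share their groups and libraries, and edgeR called 0 of the 8 (adjusted p = 0.0799 to 0.191).

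Markers of cell types were read in the same libraries, since the RNA is from bulk samples, in which fewer cells of a type and less RNA per cell cannot be told apart. Of 15 luminal markers, 14 were analysed, 12 were tested and edgeR called 1, Elf5, a luminal progenitor factor, with 41.5, 63.0 and 2.79 CPM in 16IC 1 to 3, against at most 0.124 CPM in EIC (edgeR adjusted p = 0.0462). On the luminal list 8 reached an unadjusted p under 0.05, limma-voom called 0 and DESeq2 called 6. Elf5 was not called by limma-voom (adjusted p = 0.183), nor by edgeR without 16IC 1, 16IC 2, EIC 1, EIC 2 or EIC 3 (edgeR adjusted p = 0.167, 0.171, 0.168, 0.0857 and 0.173). The summed level of the luminal list was 9634, 9678 and 1895 CPM in 16IC 1 to 3, against 3401, 2702 and 3375 CPM in EIC 1 to 3. Like Pkp3, Dsc2 and Evpl, it was high in 16IC 1 and 16IC 2 and not in 16IC 3, and its part in the results was not tested. Epcam, the epithelial adhesion molecule, had 1160, 1345 and 51.1 CPM in 16IC and 0.456, 1.08 and 3.79 CPM in EIC (edgeR adjusted p = 0.0517). Krt8 was at 580.4 CPM or more in every line. Kit was at 0 counts in all 16IC lines and at 0, 15 and 16 counts in EIC 1 to 3. A log2 fold change above 0 was found for 11 of the 12 tested luminal markers, and for 49.7% of all tested genes. The exception was Krt19, at -8.36 (edgeR adjusted p = 0.0899).

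The other marker lists summed to less CPM than the luminal list in every line. These sums are not per length and the lists differ in size, so they do not rank cell types. The 9 basal and myoepithelial markers summed to 2.63 to 64.5 CPM in 16IC and 10.8 to 27.6 CPM in EIC, with Krt5 at no more than 0.0612 CPM in any line. The 7 squamous markers analysed of 10 summed to 7.72 to 67.5 CPM in 16IC, most of it Dsg3 in 16IC 1 and 16IC 2, and to 13.9 to 17.7 CPM in EIC. The 7 fibroblast markers analysed of 10 summed to 11.6 to 36.0 CPM in 16IC and 93.1 to 286 CPM in EIC, with Dcn at most 1.23 CPM in 16IC and 1.86 CPM in EIC. The list was mixed in direction, with 3 of its 6 tested genes at a log2 fold change above 0. The matrix genes Col1a1, with 3.13, 4.77 and 4.995 CPM in 16IC 1 to 3, against 0.513, 1.08 and 1.99 CPM in EIC 1 to 3, and Postn, with 3.92, 2.39 and 8.04 CPM in 16IC 1 to 3, against 0, 0.662 and 1.06 CPM in EIC 1 to 3, lay higher in each 16IC line than in any EIC line (log2 fold changes 1.84 and 3.05, edgeR adjusted p = 0.131 and 0.194). Of the fibroblast markers 6 were tested, with 3 at an unadjusted p under 0.05, and limma-voom called 1, DESeq2 3 and edgeR 1, Fbln1, a matrix gene, which fell to 0.181, 1.96 and 0.649 CPM in 16IC 1 to 3, against 93.2, 81.0 and 180 CPM in EIC (edgeR adjusted p = 0.0360, lost without 16IC 1, 16IC 2, EIC 1 or EIC 3 at 0.104, 0.110, 0.139 and 0.151). The 7 leukocyte markers analysed of 8 summed to 88.2 to 371.5 CPM in 16IC and 74.7 to 220.2 CPM in EIC, with Ptprc, the pan-leukocyte gene, at most 0.306 CPM in 16IC and 0.0602 CPM in EIC. Most of that sum was Cd14 in every line, with 74.2, 81.1 and 352 CPM in 16IC and 57.0, 205.5 and 77.7 CPM in EIC. The 5 endothelial markers analysed of 6 summed to at most 1.36 CPM in 16IC and 4.16 CPM in EIC, and the 3 adipocyte markers analysed of 6 to at most 2.66 CPM in 16IC and 44.3 CPM in EIC. Of the adipocyte markers, Fabp4 alone had 22.1, 0.241 and 42.1 CPM in EIC 1 to 3. Of the 4 cardiac markers, from a tissue rich in desmosomes, 1 was analysed, Tnnt2, with 324, 414.5 and 114 CPM in 16IC 1 to 3, against 29.2, 34.5 and 9.14 CPM in EIC (edgeR adjusted p = 0.0580). Among tested basal (2), squamous (4), leukocyte (2), adipocyte (2) and cardiac (1) markers edgeR and limma-voom called 0. In edgeR 1, 0, 0, 2 and 1 had an unadjusted p under 0.05, while DESeq2 called 1, 0, 0, 2 and 1. Their part in the results was not tested.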

How the data were processed

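The authors deposited read counts per gene for each line, as whole numbers, beside FPKM values made from the count and gene length, a normalised signal (the count divided by 1 size factor per library), its group means, and the log2 fold change, p-value and adjusted p-value of their own comparison. Per the submitters' processing notes the tools included limma, edgeR, HTSeq, STAR and Trimmomatic, with builds GRCm38 and mm10. Roles, versions, settings and strandedness are stated in none of the sources used here. Start and end of all 10 members equalled GENCODE M21 on GRCm38.

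From the counts, edgeR 4.0.16 (R 4.3.3) filtered genes by group with filterByExpr (minimum count 10), scaled libraries by TMM and compared 16IC with EIC by its quasi-likelihood test, with Benjamini-Hochberg adjustment over all 13698 tested genes and a threshold of 0.05. Fold changes are 16IC over EIC. No block was fitted, since replicate numbers follow accession order. Alternatives were other scalings and filters, the robust fit, limma-voom (limma 3.58.1), DESeq2 1.42.0, each line left out and a threshold of 0.1. The scripts were tested on simulated data. Differences in ratios were tested by exact permutation over lines.

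The members and gene lists were chosen with earlier results of these data known. All members were named, and of each list the called genes and up to 4 with the smallest p, except for a gene that is not reported here. Totals of 15621563 to 17468498 counts set the precision, and floors of 3 counts cover counting error only.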

Additional observations from a re-analysis of the deposited data

How the results depend on the processing

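No result for a single gene changed direction under any alternative run. Of 169 alternative values for the 9 tested members and for Grhl1, Klf4, Elf5 and Fbln1, 130 stayed on the same side of the threshold, 30 lost a call (28 of them by leaving out a line) and 9 gained one. The number of genes called was 335 with the settings used, 223 with no filter on low counts, 2098 with DESeq2, 1184 at a threshold of 0.1, and 0 to 1913 with a line left out, with 2248 to 4427 at an unadjusted p under 0.05. The number of members called was 2, and it was 1 with limma-voom, 7 with DESeq2, 3 at a threshold of 0.1, and 0 to 6 with a line left out, with 4 to 9 at an unadjusted p under 0.05. With other scalings, other filters or the robust fit it stayed at Dsg2 and Dsp. The difference in the log2 ratio of cadherin to plaque signal was 3.36 and ranged from 2.61 to 4.13 with a line left out, and the difference in Pkp3 share was 19.2 percentage points, from 11.3 to 33.5. No paired analysis was possible because the labels give no replicate numbers that the groups share. In EIC, Dsg2, Dsc2 and Evpl rest on few counts, which limits how low a level could be seen.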
